A study of Mus musculus with 8 samples.

Results

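The 9 genes described here encode enzymes of serine synthesis and of folate-carried one-carbon metabolism: Phgdh, Psat1, Psph, Shmt1, Shmt2, Mthfd1, Mthfd2, Mthfd1l and Aldh1l2. They were found by symbol among the 31053 genes of the single-cell RNA-seq count tables, and all 9 were present once. The list was chosen by pathway membership and by the fall of Phgdh between the culture temperatures in cells called G1, which was among the largest in these data. The values of Phgdh are therefore given as a description, without a test, and counts of genes past a test cover the 8 others.

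SN4741 is a clonal mouse neural precursor line, derived from embryonic substantia nigra tissue of mice carrying a temperature-sensitive SV40 T antigen behind the tyrosine hydroxylase promoter, and described by the study as polyploid and genetically unstable. The study describes no further genetic change in these cells. Cells of 4 libraries were grown at 37°C, the permissive temperature, in medium with 10% fetal bovine serum. Cells of the other 4 libraries were grown at 39°C, the non-permissive temperature, in 0.5% serum for 48 hours. Temperature and serum changed together and cannot be told apart. The labels do not say whether libraries of a group came from separate cultures, so p-values measure the spread between these libraries, which may be technical. Each library was made with 3' droplet chemistry that counts unique molecular identifiers (UMIs), 1 for each captured transcript. Levels are given as CPM, the UMIs of a gene for each 1000000 UMIs of a library. They are scaled between libraries, with the exceptions named under the processing of the data.

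Cells make serine from the glycolytic intermediate 3-phosphoglycerate: Phgdh oxidises it, Psat1 adds an amino group and Psph removes the phosphate. Shmt1 in the cytosol and Shmt2 in mitochondria then split serine into glycine and a one-carbon unit bound to tetrahydrofolate. Mitochondrial Mthfd2, Mthfd1l and Aldh1l2 and cytosolic Mthfd1 oxidise, release or recapture that unit, which feeds purine, thymidylate and methionine synthesis and is in high demand in dividing cells. Several of these genes are known targets of Atf4, a transcription factor of the amino acid response.

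After limits on mitochondrial share and genes per cell, 18351 of 19125 deposited cells remained, of which 8550 came from 37°C and 9801 from 39°C. A library held 26238596 to 29633818 UMIs at 37°C, and 17166686 to 28096213 at the higher temperature. Cells with at least 1 UMI of Mki67, a nuclear protein of cycling cells, made up 56.0% ± 3.55 of cells at 37°C (SD over 4 libraries) and 6.26% ± 0.842 at 39°C. The cells' precursor markers were only partly present: Nes was at 430 to 538 CPM at 37°C and 105 to 117 at 39°C, Sox2 at 52.0 to 57.2 and 72.6 to 80.7, and Vim at 5145 to 5445 and 5002 to 5617, while 5 of the 8 neural precursor markers and 6 of the 7 dopaminergic neuron markers were under 1 CPM in every library. The 7 fibroblast-like markers, led by Col1a1, summed to 1752 to 1819 CPM at 37°C and 824 to 857 at 39°C, with 2 under 1 CPM throughout. The 7 pan-neuronal markers summed to 165 to 193 and to 79.3 to 97.7, with 4 under 1 CPM, and their part in the results below was not tested, nor was that of the fibroblast-like genes.

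The sequence just upstream of a RefSeq transcript start is shown for 4 members. These are Phgdh, then Psat1 and Mthfd2, the members with the nearest profiles to that of Phgdh by the distance given below. Mthfd1 is the member whose change in all cells did not pass the test. Each line holds 120 bases in the direction of transcription from RefSeq windows on GRCm38.p6, with CCAAT, read on either strand, in capitals. The RefSeq starts used for Psat1 and Mthfd2 lie inside the longer intervals that GENCODE gives these genes, and the stretch of Phgdh holds 21 bases of a GENCODE exon.
Phgdh, chr3:98339970-98340089, minus strand: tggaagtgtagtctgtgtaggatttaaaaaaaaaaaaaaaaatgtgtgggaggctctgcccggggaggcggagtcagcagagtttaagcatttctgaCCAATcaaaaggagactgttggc
Psat1, chr19:15925060-15925179, minus strand: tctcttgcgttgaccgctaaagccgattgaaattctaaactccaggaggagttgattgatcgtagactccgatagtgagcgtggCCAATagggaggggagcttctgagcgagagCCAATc
Mthfd2, chr6:83317605-83317724, minus strand: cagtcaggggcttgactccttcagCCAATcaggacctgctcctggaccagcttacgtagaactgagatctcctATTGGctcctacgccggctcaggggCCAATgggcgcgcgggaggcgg
Mthfd1, chr12:76255112-76255231, plus strand: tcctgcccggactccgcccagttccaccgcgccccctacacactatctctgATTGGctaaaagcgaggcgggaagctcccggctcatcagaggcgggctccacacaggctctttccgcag
All 4 stretches held the CCAAT letters, including that of Mthfd1. Over full windows of 250 bases before to 50 after the start, 8 of the 9 members had an entry, and CCAAT stood in 6 of these 8 (Mthfd1, Mthfd2, Phgdh, Psat1, Psph and Shmt1) and in 37.4% of all 32851 windows. The letters GGGCGG stood in 5 members (Mthfd1, Mthfd1l, Psat1, Psph and Shmt1) and in 35.7% of windows. The 8 members had 9 windows, since Psat1 had another start, and a member counted where any of its windows matched. The GGGCGG of Psat1 stood in its other window, not in the one shown. CACGTG stood in 7.15% of all windows and TGATGNAA, the composite element that Atf4 is known to bind, in 3.97%, and in none of the members' windows. All motifs were searched on both strands and do not share letters in a way that makes 1 match imply another. These matches are letters in a window, not sites of binding.

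In counts summed over all cells of a library, 7 of the 8 other members fell at 39°C and Mthfd1 did not pass the test (edgeR quasi-likelihood, Benjamini-Hochberg adjusted over 15810 genes). Across all genes tested 30.5% passed as lower and 31.5% as higher, so a fall was common in these data. The median log2 fold change of the 8 was -1.34, against 0.02 over all genes. The 2 groups of 4 libraries did not overlap for 7 of the 8, while 28.0% of all genes were lower without overlap. In such sums, fewer cells with a transcript and less of it per cell cannot be told apart, which is why the values are also given by cell class. Levels compare 1 gene between groups, not genes with each other.

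Phgdh (ENSMUSG00000053398, chr3:98313170-98339990) encodes the dehydrogenase that opens serine synthesis. Its level was 199, 240, 243 and 287 CPM in the 37°C libraries and 24.9, 29.0, 29.0 and 27.3 in the 39°C libraries. Every 39°C library was far below every 37°C library, and the spread at 37°C (242 ± 35.8, SD, n = 4) was wider than at 39°C (27.6 ± 1.93). The log2 difference was -3.13 ± 0.0880 (SE), or 8.76-fold lower at 39°C, from 27129 and 2733 UMIs. Phgdh has a processed pseudogene, Phgdh-ps1, with which reads could be shared.

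Psat1 (ENSMUSG00000024640, chr19:15904678-15947337) encodes the aminotransferase of the next step. It was at 99.1, 117, 112 and 115 CPM at 37°C and at 15.6, 16.1, 17.7 and 17.1 at 39°C. The groups were far apart and each was tight. Psat1 fell 6.64-fold, a log2 difference of -2.73 ± 0.0613 (SE, adjusted p = 2.96e-17). The pseudogene Gm3329 overlaps Psat1 on the other strand.

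Psph (ENSMUSG00000029446, chr5:129765558-129787449), the phosphatase that releases free serine, fell less. It measured 29.1, 39.2, 36.1 and 39.1 CPM at 37°C and 14.8, 15.9, 15.7 and 13.7 at 39°C. The lowest 37°C library, replicate 1, was still above the highest 39°C library. The fall was 2.38-fold (log2 difference -1.25 ± 0.0828, SE, adjusted p = 1.15e-10). The annotated interval of Psph shares bases with Cct6a on the other strand.

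Shmt2 (ENSMUSG00000025403, chr10:127517123-127522444), the mitochondrial serine hydroxymethyltransferase, was at 46.4, 53.8, 49.0 and 56.7 CPM at 37°C and at 22, 24.9, 21.2 and 23.6 at 39°C. It fell 2.24-fold with no overlap (log2 difference -1.16 ± 0.0659, SE, adjusted p = 1.14e-11). Its cytosolic counterpart Shmt1 (ENSMUSG00000020534, chr11:60788104-60811718) changed less, from 18.8, 21.4, 22.1 and 24.5 to 12.4, 11.8, 12.8 and 13.1. The groups of Shmt1 were again separate, and the fall was 1.73-fold (log2 difference -0.79 ± 0.0736, SE, adjusted p = 1.54e-08), the smallest among the 7 that passed. Shmt2 overlaps Ndufa4l2, and Shmt1 overlaps Smcr8 and Gm24945, on the other strand. Whether counting used strand is not given in the sources used here, so reads of Psph, Shmt1, Shmt2 and the members below with a partner on the other strand are uncertain to that extent.

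Mthfd2 (ENSMUSG00000005667, chr6:83305691-83325908), the mitochondrial dehydrogenase and cyclohydrolase, fell about as far as Psat1. Its levels were 44.2, 49.2, 46.0 and 56.3 CPM at 37°C and 7.04, 7.57, 6.09 and 7.32 at 39°C. The 39°C libraries lay close together, well under all 37°C libraries. The fall was 6.99-fold (log2 difference -2.81 ± 0.0832, SE, adjusted p = 9.03e-16). Mthfd2 shares bases on its own strand with the unclassified gene Gm43890.

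Mthfd1l (ENSMUSG00000040675, chr10:3973118-4167081), which releases formate from mitochondria, was at 14.4, 16, 15 and 17.4 CPM at 37°C and at 4.94, 5.56, 6.44 and 6.21 at 39°C. The groups did not overlap, and the fall was 2.68-fold (log2 difference -1.42 ± 0.0849, SE, adjusted p = 2.48e-11). Aldh1l2 (ENSMUSG00000020256, chr10:83487450-83534140), the mitochondrial dehydrogenase that oxidises 10-formyltetrahydrofolate, was scarce. It gave 232 UMIs at 37°C and 26 at 39°C, or 2.06, 2.36, 1.68 and 2.21 CPM against 0.170, 0.114, 0.389 and 0.347. The pooled levels were 2.05 (95% exact Poisson interval 1.79 to 2.33) and 0.267 (0.175 to 0.391) CPM, counting error only. Aldh1l2 passed the test with a log2 difference of -2.95 ± 0.263 (SE, adjusted p = 8.43e-09). It overlaps D10Wsu102e on the other strand, and Mthfd1l overlaps Gm16074 and Gm25515 on its own strand.

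Mthfd1 (ENSMUSG00000021048, chr12:76255298-76319803), the cytosolic enzyme with 3 activities in the same folate steps, was the member that did not pass. It was at 57.3, 60.7, 59.5 and 66.1 CPM at 37°C and at 62.4, 64.4, 64.4 and 59.5 at 39°C. The groups overlapped fully, with the highest library at 37°C and the lowest also at 37°C. The log2 difference was 0.04 ± 0.0502 (SE, adjusted p = 0.496), a value that turned to -0.01 without 37°C replicate 1. Mthfd1 overlaps Gm34868, Gm47525 and Gm47526 on the other strand.

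**Figure D1:**
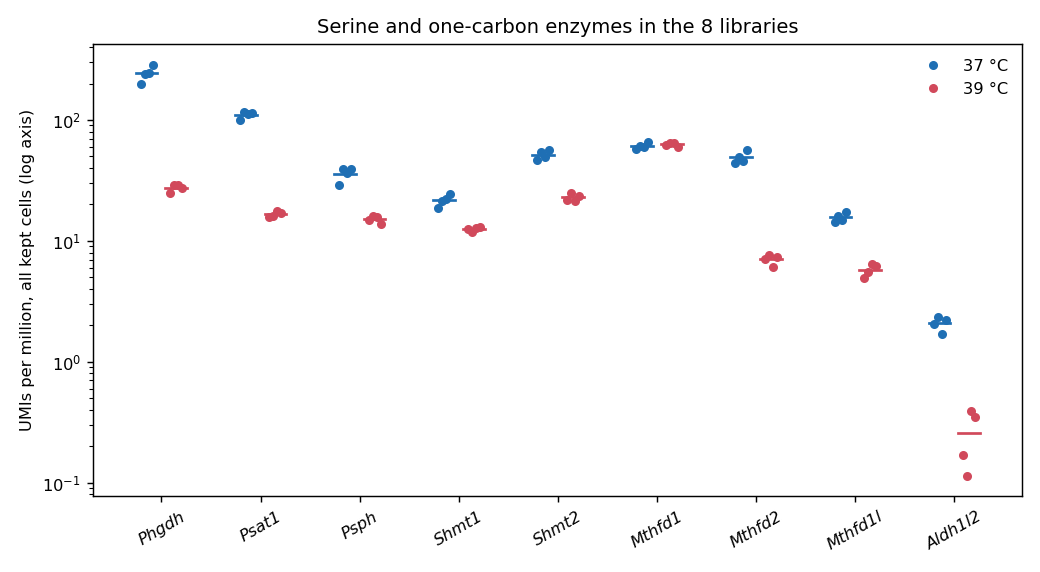
Level of each member in each library, in CPM on a log axis, summed over all cells of the library; points are the 4 libraries at 37°C (blue) and the 4 at 39°C (red) and short bars are group means. The groups are separate for 8 members, from Phgdh with means of 242 and 27.6 to Shmt1 with 21.7 and 12.5, and overlap for Mthfd1 with 60.9 and 62.7.

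The 9 members together summed to 590 ± 63.0 CPM in the 37°C libraries and to 170 ± 5.11 in the 39°C libraries (SD, n = 4). Phgdh gave 41.0% ± 1.83 of these UMIs at 37°C and 16.2% ± 0.686 at 39°C. Mthfd1 gave 10.4% ± 0.581 at 37°C and 36.8% ± 1.08 at 39°C, so that the largest contributor by UMI count was Phgdh at 37°C and Mthfd1 at 39°C.

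Paired enzymes of the mitochondria and the cytosol were compared as log2 ratios of their counts within each library, which do not depend on scaling between libraries. The absolute value of such a ratio mixes 2 genes with unlike capture, so only its difference between temperatures is read. The Shmt2 to Shmt1 ratio went from 1.25 ± 0.0825 at 37°C to 0.87 ± 0.150 at 39°C (SD, n = 4), a difference of -0.38. The Mthfd2 to Mthfd1 ratio went from -0.32 ± 0.0680 to -3.17 ± 0.166 (SD, n = 4), a difference of -2.84. The Mthfd1l to Mthfd1 ratio went from -1.96 ± 0.0385 to -3.44 ± 0.185 (SD, n = 4), a difference of -1.49. For each of the 3 ratios all 39°C libraries were below all 37°C libraries, with p = 0.0286 by a two-sided exact permutation test over 70 assignments, the smallest p this design allows, and an adjusted p = 0.0286 over the 3. In cells without Mki67 UMIs the Mthfd2 and Mthfd1l ratios differed by -2.53 and -1.48 (exact permutation p = 0.0286, adjusted p = 0.0429), and the Shmt2 to Shmt1 ratio by -0.22 (exact permutation p = 0.114), which did not pass.

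Since cells with Mki67 UMIs were far fewer at 39°C, the same comparison was made within each class. In cells without Mki67 UMIs (3804 at 37°C and 9214 at 39°C), the same 7 members fell and Mthfd1 rose, against 27.1% of 15040 genes lower and 29.7% higher. The median log2 difference of the 8 was -1.22, and 0.04 over all genes. The groups were without overlap, lower at 39°C, for 7 of the 8, beside 24.7% of all genes. Phgdh was at 170, 180, 198 and 235 CPM at 37°C and 23.1, 25.4, 26.3 and 24.9 at 39°C in these cells. Every 39°C library stayed below every 37°C library, by 7.76-fold in the fitted means. Psat1 fell 5.42-fold (log2 difference -2.44 ± 0.0658, SE, adjusted p = 4.04e-17), from 71.9, 87.7, 79.3 and 85.0 to 13.8, 14.7, 15.2 and 15.2. Mthfd2 fell 5.21-fold (-2.38 ± 0.0961, SE, adjusted p = 1.45e-14), from 29.4, 35.7, 29.9 and 37.6 to 6.35, 7.14, 5.25 and 6.5. Neither gene had overlapping groups.

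The smaller falls in cells without Mki67 UMIs were also close to those in all cells. On the log2 scale Mthfd1l differed by -1.31 (adjusted p = 2.63e-09), Psph by -1.13 (adjusted p = 4.64e-10), Shmt2 by -1.03 (adjusted p = 3.34e-11) and Shmt1 by -0.81 (adjusted p = 2.58e-08). Aldh1l2 gave 68 UMIs at 37°C and 25 at 39°C, with a log2 difference of -2.50 ± 0.346 (SE, adjusted p = 2.03e-06). Mthfd1 was at 54.4 to 61.9 CPM at 37°C and 60.1 to 64.6 at 39°C, overlapping ranges, with a log2 difference of 0.14 ± 0.0536 (SE, adjusted p = 0.0255). This rise of Mthfd1 was lost in 9 of 21 alternatives.

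In cells with Mki67 UMIs (4746 at 37°C and 587 at 39°C, 73 to 190 per library), Aldh1l2 had 1 UMI over the 39°C libraries and met the minimum for testing through the 37°C libraries alone, so it is left out of the counts here. Of the other 7, 5 fell, while Shmt1 and Mthfd1 did not pass, against 18.6% of 14404 genes lower and 15% higher. The median of these 7 was -0.85, and -0.03 over all genes. The groups did not overlap for 5 of the 7, against 21.5% of genes. Phgdh measured 226, 279, 274 and 326 CPM at 37°C and 47.2, 80.4, 60.5 and 61.4 at 39°C. The groups were well apart but the 39°C libraries varied more than in the other class, and the fitted mean was 4.34-fold lower. Psat1 fell 3.16-fold (log2 difference -1.66 ± 0.0894, SE, adjusted p = 2.19e-15), from 121, 136, 133 and 136 to 37.5, 36.2, 46.3 and 43.7. Mthfd2 fell 3.68-fold (-1.88 ± 0.126, SE, adjusted p = 3.25e-13), from 55.9, 57.8, 56.2 and 69.1 to 15.3, 14.0, 16 and 18.8.

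Psph in cells with Mki67 UMIs went from 32.4, 42.1, 38.8 and 41.6 CPM to 13.2, 22.1, 23.6 and 21.0. Replicate 1 was the lowest of each group, and the log2 difference was -0.90 (adjusted p = 3.04e-06). Shmt2 (-0.83, adjusted p = 1.62e-07) and Mthfd1l (-0.85, adjusted p = 5.88e-05) fell by similar amounts. Shmt1 was at 19.8, 22.2, 22.3 and 25.5 at 37°C and 21.5, 17.3, 24.9 and 14.4 at 39°C. These ranges overlapped, and the log2 difference of -0.17 ± 0.143 (SE, adjusted p = 0.386) turned to 0.10 where the class was limited to cells with at least 2 Mki67 UMIs. Mthfd1 was also in overlapping ranges, 61.1 to 70.2 and 55.8 to 73.4 (log2 difference 0.09 ± 0.0851, SE, adjusted p = 0.478). Aldh1l2 gave 164 UMIs at 37°C and 1 UMI at 39°C. The pooled levels of Aldh1l2 were 2.32 (95% exact Poisson interval 1.98 to 2.70) and 0.141 (0.00357 to 0.786) CPM. Cells with Mki67 UMIs were deeper than cells without at each temperature, with median UMIs per cell of 11448 to 17162 against 8296 to 13059 at 37°C and of 8386 to 17890 against 6557 to 16586 at 39°C. After each cell was thinned to 5000 UMIs or limited to 8000 to 16000 UMIs, Mthfd1l no longer passed in this class. Neither did Aldh1l2, which is not counted here.

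**Figure D2:**
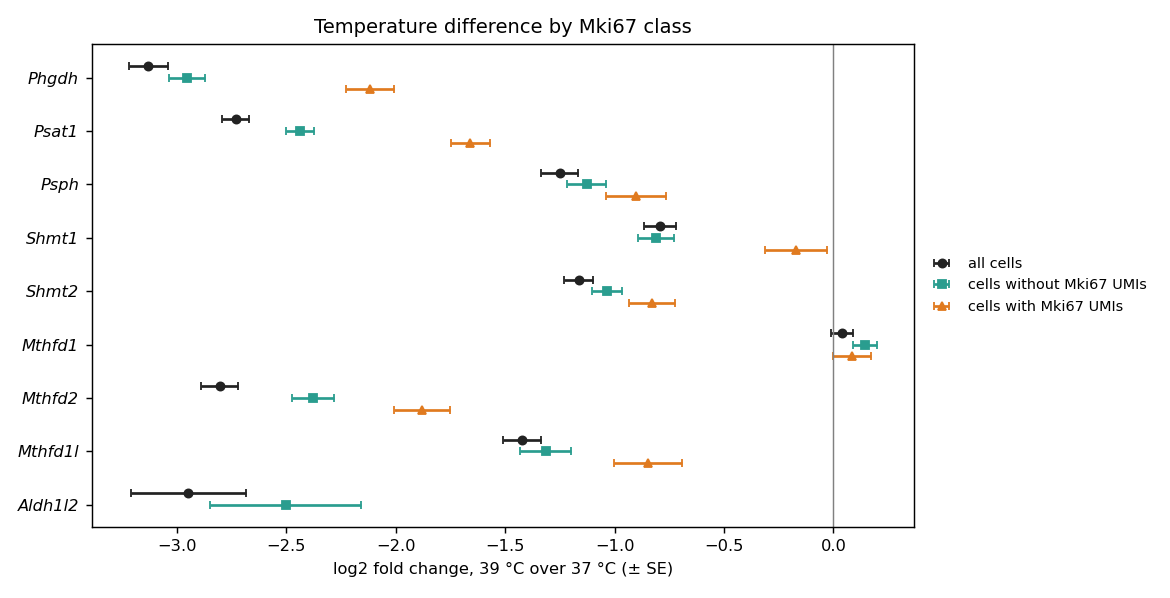
Log2 difference of each member at 39°C against 37°C, with bars of 1 SE, in all cells, in cells without and in cells with Mki67 UMIs; Aldh1l2 in cells with Mki67 UMIs is left out, since it had 1 UMI at 39°C. Phgdh, Psat1 and Mthfd2 lie at -2.12, -1.66 and -1.88 in cells with Mki67 UMIs and at -2.96, -2.44 and -2.38 in cells without, Aldh1l2 lies at -2.50 in cells without, and Mthfd1 lies nearest to 0 in each class.

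Cells were also called G1, S or G2/M from cell cycle gene scores, and 20.6% to 28.7% of cells per library were G1 at 37°C against 82.5% to 85.4% at 39°C. In G1 cells Phgdh was at 133, 144, 149 and 174 CPM at 37°C and 22, 23.0, 23.5 and 21.7 at 39°C. This is the contrast for which Phgdh was chosen: the groups were far apart, 6.64-fold in the fitted means (log2 difference -2.73 ± 0.0703, SE). Of the 8 others 7 fell and Mthfd1 rose, against 22.4% of 14712 genes lower and 24.8% higher. Psat1 fell from 57.5 to 65.8 CPM at 37°C to 12.1 to 13.1 at 39°C (log2 difference -2.29 ± 0.0646, SE, adjusted p = 2.01e-17). Mthfd2 fell from 21.0 to 32.9 to 4.63 to 6.65 (-2.18 ± 0.128, SE, adjusted p = 3.68e-12). Mthfd1 was higher at 39°C in G1 cells by 0.38 ± 0.0572 (log2, SE, adjusted p = 7.81e-06). The other 5 differed by -2.63 (Aldh1l2), -1.0 (Mthfd1l), -0.91 (Psph), -0.73 (Shmt2) and -0.43 (Shmt1) on the log2 scale, with adjusted p from 2.58e-08 to 0.000712.

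To hold the proportions of the Mki67 classes fixed, the 39°C levels of the classes were combined at the 37°C proportions. In these proportions cells with Mki67 UMIs hold 62.5% of UMIs. Phgdh at 39°C then came to 48.3 ± 8.85 CPM (SD, n = 4), which is 19.9% of its 37°C level, where the measured level was 11.4% of it. Psat1 came to 28.0% in place of 15%, and Mthfd2 to 25.3% in place of 14.3%. For the smaller falls the values were 50.2% and 41.9% for Psph, 50.5% and 36.8% for Mthfd1l, and 54.1% and 44.5% for Shmt2. Shmt1 came to 77.0% in place of 57.7%, and Mthfd1 to 108% in place of 103%. Aldh1l2, with 1 UMI in the class given more weight, came to 8.17% in place of 12.3%. The reweighted values of Phgdh, Psat1, Psph, Shmt2, Mthfd2 and Mthfd1l lay below every 37°C library, while those of Shmt1 (13.9 to 19.98 CPM) and Mthfd1 (57.5 to 69.8 CPM) overlapped them. Each class still differed in phase between temperatures, which the reweighting does not remove. Of cells without Mki67 UMIs, 40.2% to 51.4% per library were called G1 at 37°C and 86.6% to 89.7% at 39°C. With Mki67 UMIs these shares were 5.16% to 6.96% and 11.6% to 31.5%.

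Within a temperature, cells with Mki67 UMIs were compared with cells without in the same library. At 37°C 7 of the 8 were higher in cells with Mki67 UMIs and Shmt1 did not pass (edgeR, library as block), against 19.8% of 14744 genes higher and 15.3% lower. The median log2 difference of the 8 was 0.27, and 0.01 over all genes. At 39°C 6 of the 8 were higher, with Mthfd1 and Aldh1l2 not passing, against 13.1% of genes higher and 14.9% lower. There the median of the 7 without Aldh1l2 was 0.71, and -0.05 over all genes. Phgdh was higher in cells with Mki67 UMIs in 4 of 4 libraries at each temperature, by 0.49 ± 0.0308 at 37°C and 1.33 ± 0.0867 at 39°C (log2, SE). All 4 libraries also went this way at each temperature for Psat1, Mthfd2, Mthfd1l and Shmt2. A higher level in all 4 libraries was found for 26.0% of genes at 37°C and 15.8% at 39°C.

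Psat1 was higher by 0.70 ± 0.0370 at 37°C (log2, SE, adjusted p = 3.87e-43) and by 1.48 ± 0.105 at 39°C (adjusted p = 3.32e-29). Mthfd2 was higher by 0.85 ± 0.0509 (adjusted p = 5.65e-37) and 1.36 ± 0.166 (adjusted p = 8.58e-13). These were the largest values among the 8. Psph was higher by 0.25 and 0.48 (adjusted p = 5.58e-05 and 0.00243), Shmt2 by 0.27 and 0.47 (5.67e-07 and 0.000171), and Mthfd1l by 0.28 and 0.74 (0.00239 and 0.00167). Mthfd1 was higher at 37°C by 0.18 (adjusted p = 0.000403) and differed by 0.11 at 39°C (adjusted p = 0.267). Shmt1 differed by 0.07 at 37°C (adjusted p = 0.453), with 3 of 4 libraries higher, and was higher at 39°C by 0.71 ± 0.140 (adjusted p = 8.80e-06), with 4 of 4. Aldh1l2 was higher at 37°C by 0.58 ± 0.225 (adjusted p = 0.0338), a call lost in 9 of 21 alternatives, and gave 1 UMI with and 25 without Mki67 at 39°C.

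The classes differ in depth, so the comparison was repeated at matched depth. With each cell thinned to 5000 UMIs and classed again from the thinned counts, 2 of the 8 passed as higher at 37°C, Psat1 (0.53) and Mthfd2 (0.62), while Phgdh was at 0.25, Shmt2 at 0.00 and Shmt1 at -0.14. At 39°C 3 passed, Psat1, Mthfd2 and Shmt2, with Phgdh at 1.20. Psph (0.50) and Mthfd1l (0.55) no longer passed at 39°C while their values stayed near those of all UMIs, and Shmt1 was at 0.37. In cells of 8000 to 16000 UMIs, 2 passed at 37°C, again Psat1 (0.63) and Mthfd2 (1.00), with Phgdh at 0.28, and 5 at 39°C, with Phgdh at 1.25. Psat1 and Mthfd2 were thus higher at each depth tried, and no other of the 8 passed at 37°C at matched depth.

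The difference of the class effect between temperatures was tested directly. It passed for 3 of the 8, each larger at 39°C, against 5.45% of genes larger and 7.82% smaller. Psat1 differed by 0.78 ± 0.106 (log2, SE, adjusted p = 6.49e-10), Shmt1 by 0.64 ± 0.154 (adjusted p = 0.000910) and Mthfd2 by 0.50 ± 0.163 (adjusted p = 0.0222). Phgdh differed by 0.84 ± 0.0889. For Mthfd1l (0.46, adjusted p = 0.148), Psph (0.23, adjusted p = 0.348), Shmt2 (0.21, adjusted p = 0.277) and Mthfd1 (-0.06, adjusted p = 0.717) the difference did not pass. Aldh1l2 did not pass either, but it gave 1 UMI in cells with Mki67 UMIs at 39°C, too few to read a difference. At matched depth Psat1 kept its call (1.15 thinned, 1.07 in the depth window), Mthfd2 kept it when thinned (1.10) and not in the window (0.23), and Shmt1 lost it in both (0.51 and 0.71). Without 39°C replicate 3, 1 of the 3 calls was left.

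**Figure D3:**
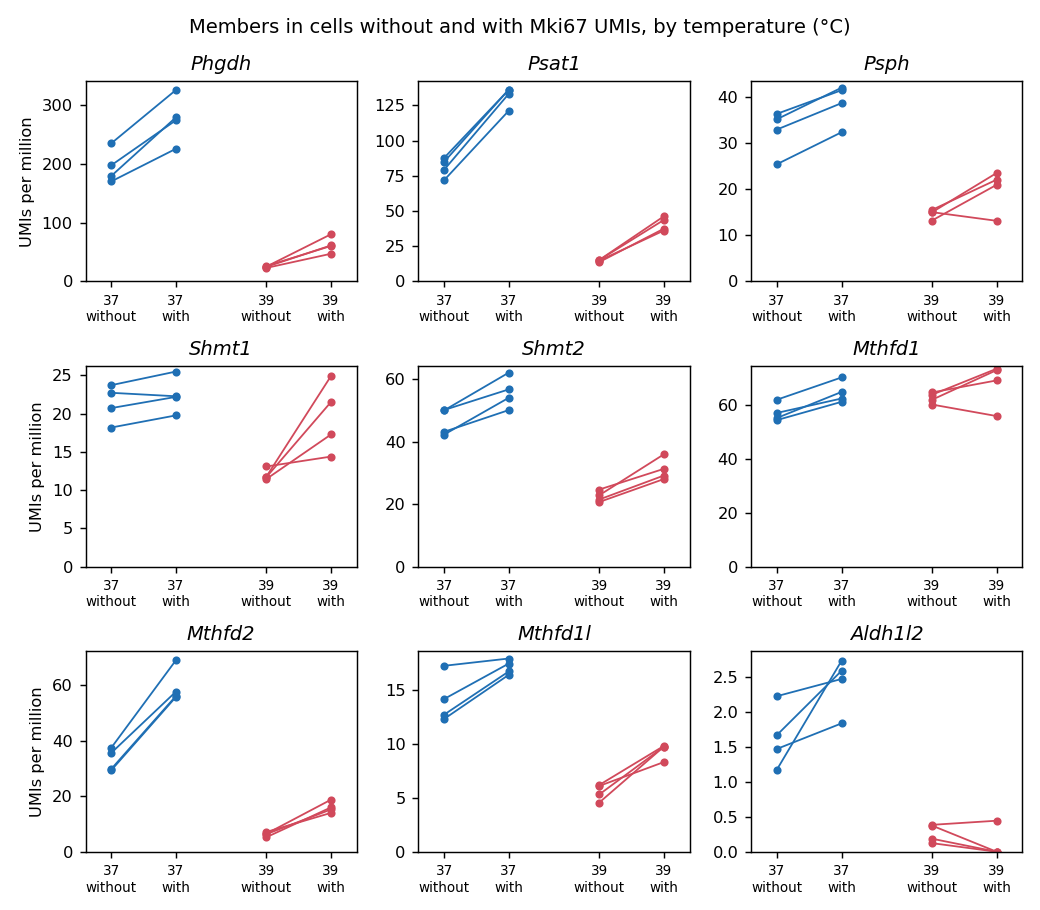
Level of each member, in CPM, in cells without and with Mki67 UMIs of the same library; each line joins the classes of 1 library, blue at 37°C and red at 39°C, and each panel has its own axis. Phgdh lines run from 170 to 235 up to 226 to 326 at 37°C and from 23.1 to 26.3 up to 47.2 to 80.4 at 39°C, and for Mthfd1 the lines of both temperatures lie in 1 range.

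Split further by the Mki67 UMIs of a cell (0, 1, or 2 and more), the mean level of Phgdh over libraries was 195, 243 and 272 CPM at 37°C and 25, 52.6 and 74.5 at 39°C. Psat1, at the same steps, was at 80.5, 105 and 132 and at 14.8, 29.8 and 52.5. Mthfd2 was at 32.9, 46.7 and 60.3 and at 6.32, 12.8 and 19.5. For these 3 genes the mean rose with each step at both temperatures, though in 39°C replicate 4 Phgdh went from 65.1 to 61.7 and Mthfd2 from 20.8 to 18.3 between the last steps, and the highest mean at 39°C was below the lowest mean at 37°C. Shmt1 was at 21.2, 26.1 and 20.5 at 37°C and 12, 16.5 and 23.4 at 39°C, so that the groups met in cells with most Mki67. Mthfd1 stayed between 56.8 and 70.9 over all 6. The groups of cells held 3804, 1104 and 3642 cells at 37°C and 9214, 267 and 320 at 39°C.

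The share of cells with at least 1 UMI was compared at an equal depth of 5000 UMIs per cell, in 7882 cells at 37°C and 8133 at 39°C, leaving out 668 and 1668 shallower cells. Phgdh was found in 57.9% ± 5.42 of cells at 37°C and 10.8% ± 1.06 at 39°C (SD, n = 4 libraries), and in 75.0% and 19.8% before thinning. Psat1 was found in 38.4% and 7.46%, and Mthfd2 in 18.4% and 3.29%. Shmt2 was found in 21.2% and 11.1%, Psph in 15.7% and 7.60%, and Shmt1 in 10.1% and 5.94%. Mthfd1l was found in 6.97% and 2.73% and Aldh1l2 in 0.894% and 0.179%, while Mthfd1 was at 25.3% ± 2.36 and 25.2% ± 0.764. The libraries hold no cell type known to lack these genes, so the share that free RNA would give was not measured.

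The genes whose profile over the 16 class levels (8 libraries, with and without Mki67 UMIs) was most like that of Phgdh were Psat1 (Euclidean distance 1.31 on log2 values of CPM + 1 centred on their mean), Mthfd2 (1.39), Acta2 (1.43), Eno3 (1.56) and Krt19 (1.91), among 6397 genes averaging at least 20 CPM. Of the other members, Psph was 72nd (3.34), Shmt2 94th (3.5) and Mthfd1 3753rd (5.57). Shmt1, Mthfd1l and Aldh1l2 were under the limit of 20 CPM and were not ranked. The distance also weighs the size of a change. By Pearson correlation with Phgdh, Shmt2 (0.978) lay between Psat1 (0.979) and Mthfd2 (0.976), with Psph at 0.959 and Mthfd1 at -0.163. A high correlation was not particular to members: Eno3 (0.982) was above all of these, and Acta2 (0.968) and Krt19 (0.962) were above Psph. Correlations were not ranked over the 6397 genes. The points share libraries and depth, and the ranking is a description. Acta2, a smooth muscle actin, had means of 218 CPM at 37°C and 56.4 at 39°C in cells with Mki67 UMIs and of 245 and 22.9 in cells without. Eno3, an enolase of glycolysis, had 44.3 and 13.6 with and 33.0 and 6.24 without, and Krt19, a keratin, 93.5 and 26.7 with and 92.7 and 19.4 without.

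The wider pathway was read from 5 lists of genes outside the members: folate uptake, other folate cycle enzymes, the glycine cleavage system, the methionine cycle with transsulfuration, and serine transport and use. Of their 38 genes 35 were tested in all cells. At 39°C 11 rose, 17 fell and 7 did not pass, where 31.5% of all genes were higher and 30.5% lower, and the median log2 difference was -0.18. By list, 3 of 6 folate uptake genes, 6 of 9 tested folate cycle enzymes, 3 of 4 glycine cleavage genes, 2 of 8 tested methionine cycle genes and 3 of 8 tested serine transport and use genes fell, and 2, 2, 1, 2 and 4 rose. Between the classes, 8 were higher and 9 lower in cells with Mki67 UMIs at 37°C (19.8% and 15.3% of all genes), and 6 and 5 at 39°C (13.1% and 14.9% of all genes).

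Among the other folate cycle enzymes, Tyms, thymidylate synthase, fell from 142 to 43.8 CPM at 39°C (log2 difference -1.69, adjusted p = 8.94e-15) and was higher in cells with Mki67 UMIs by 0.92 at 37°C and 1.61 at 39°C. Mthfd2l, the close relative of Mthfd2, went from 56.6 to 48.8 (-0.21, adjusted p = 0.00358), beside -2.81 for Mthfd2.

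Gldc, the glycine decarboxylase, fell from 2.78 to 1.09 CPM (-1.34, adjusted p = 2.56e-07), and Amt of the same system rose in cells without Mki67 UMIs (1.61, adjusted p = 0.00216) from very low levels, a call lost in the depth window (adjusted p = 0.0653) and after thinning. Folr1, a folate receptor, was scarce, at 0.371 and 0.113 (-1.70, adjusted p = 0.00317). Sfxn1, which carries serine into mitochondria, fell from 151 to 63.7 (-1.24, adjusted p = 7.52e-14). Slc1a4, a plasma membrane carrier of neutral amino acids including serine, rose from 49.3 to 102 (1.06, adjusted p = 1.84e-11). Both carriers were named after their values were seen. In the list of serine transport and use that holds them, 4 of 8 tested genes rose and 3 fell, with a median log2 difference of 0.03.

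Of 15 genes made of Atf4 and its known targets outside the pathway, 8 fell and 6 rose at 39°C in all cells, where 30.5% of all genes fell and 31.5% rose, with a median of -0.42 beside 0.02 over all genes. Asns, asparagine synthetase, fell from 41.8 to 14.7 CPM (-1.50, adjusted p = 4.72e-13), and Nupr1, a stress-induced nuclear protein, fell by 1.55 on the log2 scale in cells with Mki67 UMIs (adjusted p = 2.11e-13). Slc7a11, the cystine carrier, rose from 2.21 to 6.30 (1.54, adjusted p = 1.52e-06), and Ddit3, a stress-induced transcription factor, from 42.0 to 87.3 (1.05, adjusted p = 1.17e-12). Atf4 itself fell from 132 to 98.7 (-0.42, adjusted p = 1.75e-06), with -0.25 in cells without and -0.53 in cells with Mki67 UMIs. In cells without Mki67 UMIs the fall of Atf4 was -0.11 in the depth window and did not pass (adjusted p = 0.453). The list was thus split in direction.

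**Figure D4:**
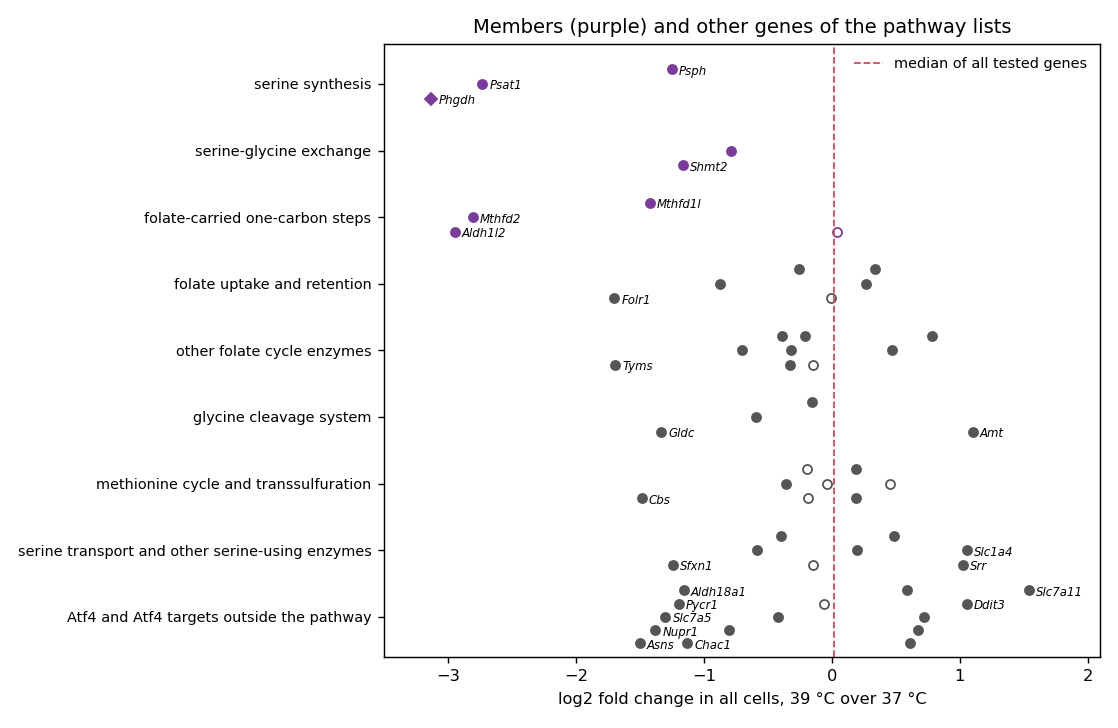
Log2 difference at 39°C against 37°C in all cells for the members (purple) and for each gene of the lists outside them; filled points have an adjusted p under 0.05, open points do not, the diamond is Phgdh, which was not tested, and the dashed line is the median of all genes at 0.02. All members but Mthfd1 lie below the line, while the other lists hold genes on both sides, such as Sfxn1 (-1.24) and Slc1a4 (1.06).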

How the data were processed

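Single-cell libraries of SN4741 cells, 4 at 37°C and 4 at 39°C, were grouped by their labels. The authors deposited UMI counts per gene and cell, made with Cell Ranger 3.0.1 on mm10 per the labels. Cell limits were a mitochondrial share of 15% (334 cells above), 6000 genes (440 above) and 200 genes (29 below); doublets were limited by the gene maximum alone. UMI counts were summed per library, and per library and Mki67 class or G1 call (Seurat 5.3.0). Levels are CPM on TMM-scaled library sizes. As exceptions, cell type marker levels, levels split by the Mki67 UMIs of a cell and pooled Aldh1l2 levels used unscaled totals. Class levels were scaled over both classes together. Temperature differences within a class, and the shares of all genes without overlap, came from fits of that class alone. Genes averaging 1 or more UMIs per profile were tested with edgeR 4.0.16 (R 4.3.3) quasi-likelihood tests and Benjamini-Hochberg adjustment over all genes, an adjusted p under 0.05 counting as passed, without a replicate block between temperatures and with library as a block between classes. All 9 members met this minimum in each comparison, and the p of Phgdh was not used. The SE of a log2 difference is its size divided by the square root of the F statistic of that test. On simulated counts, 200 of 200 changed genes were recovered for all cells and for the class at 37°C, and 197 of 200 for the class at 39°C. Recovery meant an adjusted p under 0.01 with a log2 change over 1.5 in size, not the limit used for the calls. All genes of a simulated comparison shared 1 spread, unlike real genes. The planted changes were in well-counted genes. They were larger than every class difference given above and than the smaller temperature differences, whose recovery was not measured. Promoters came from RefSeq windows and gene positions from GENCODE M21.

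The members and gene lists were chosen with earlier results of these data known. Genes outside the members were named where they passed an adjusted p of 0.01 with a log2 change over 1.5, at most 3 per direction and list, besides Atf4 (Amt, Asns, Atf4, Folr1, Gldc, Nupr1, Slc7a11 and Tyms). Mthfd2l, Sfxn1, Slc1a4 and Ddit3 were named after their values were seen. Some items are not reported here. No more than 5 cell barcodes were shared by any pair of libraries, and no pair of replicates was alike within sampling error (ratio of chi-square to its degrees of freedom 2.85 to 21.4). Alternatives covered scaling, low-count filters, cell filters, matched depth, DESeq2 1.42.0, replicate blocks and leaving out each library.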

Additional observations from a re-analysis of the deposited data

Results flagged for a closer look

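Of 54 groups of 4 libraries searched (9 members, 3 cell classes, both temperatures), 3 had 1 library far from the others, and about 1 group in 20 does so by chance. In cells with Mki67 UMIs at 37°C, Mthfd2 was at 69.1 CPM in replicate 4 and at 55.9 to 57.8 in the other 3. In cells with Mki67 UMIs at 39°C, Mthfd1l was at 8.29 in replicate 4 and at 9.71 to 9.79 in the other 3, and Aldh1l2 was at 0.445 in replicate 3 and at 0 in the others, from 1 UMI in all.

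The log2 effect of the Mki67 class was larger at 39°C than at 37°C by 0.78 for Psat1 (adjusted p = 6.49e-10), 0.64 for Shmt1 (adjusted p = 0.000910) and 0.50 for Mthfd2 (adjusted p = 0.0222), by edgeR's test of the difference. These values changed when depth was matched. At 5000 UMIs per cell the differences were 1.15, 0.51 and 1.10, of which those of Psat1 and Mthfd2 passed. In cells of 8000 to 16000 UMIs that of Mthfd2 was 0.23, and only Psat1 passed.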

How the results depend on the processing

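Of the single-gene values under alternatives, 1732 kept direction and side of the threshold, 52 no longer passed and 8 turned. Matched depth moved most counts. In the window of 8000 to 16000 UMIs and after thinning to 5000 UMIs, genes differing by temperature in cells with Mki67 UMIs numbered 2113 and 2076 (4831 before), and class-differing genes at 37°C 3352 and 3221 (5165 before), with 2 and 2 members in place of 7. At 39°C thinning left 2354 of 4131 genes and 3 of 6 members. The difference of class effects had 1956 genes, and 898 (window), 1017 (thinned), 1266 (DESeq2) and 925 (no library block), with 1 member in the window. The window and thinning hold fewer cells or UMIs, and for the others the cause was not tested. The Shmt2 to Shmt1 ratio differed by -0.22 without Mki67 UMIs (exact permutation p = 0.114).

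Mthfd1 turned in all cells without 37°C replicate 1 (range -0.0086 to 0.0765 over left-out libraries), and its class difference turned when thinned (0.0152), with library totals (0.0296) and with upper-quartile factors (0.0034). Shmt1 turned in cells with at least 2 Mki67 UMIs (0.10), and its class effect at 37°C in the window (-0.0584), thinned (-0.139) and with upper-quartile factors (-0.0102). Scaling moved the share of calls that were higher: at 37°C between classes 56.4%, and 44.0% with library totals and 32.9% with upper-quartile factors; at 39°C 46.8% and 57.8% with library totals; between temperatures with Mki67 UMIs 44.6% and 59.1% with library totals; for the class difference 41.1%, and 58.2% (RLE), 55.5% (filterByExpr), 71.9% (library totals), 64.5% (upper-quartile) and 60.8% (DESeq2).

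Leaving out 1 library gave 1 to 3 members for the class difference (1 without 39°C replicate 3), 6 to 7 for the class at 37°C and 5 to 6 at 39°C. The ratios ranged from -0.45 to -0.33 (Shmt2 to Shmt1), -2.89 to -2.77 (Mthfd2 to Mthfd1) and -1.55 to -1.42 (Mthfd1l to Mthfd1), each with an exact permutation p = 0.0571, the smallest possible. Aldh1l2 holds 26 UMIs at 39°C, which limits its precision. At 3000 UMIs per cell Phgdh was found in 42.3% and 6.45% of cells.

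Whether replicate numbers pair the samples is not known. Same-numbered deviations correlated at -0.161, -0.121, -0.207 and 0.443 over 3322 genes, and 1 of 4 replicates correlated best with its own number. These 4 values had no reference to be set against and cannot settle it. With the replicate block 9617, 8426 and 4787 genes passed (all cells, without and with Mki67 UMIs), with 7, 7 and 6 members. The 6 include Aldh1l2, which had 1 UMI at 39°C in cells with Mki67 UMIs and is left out of the counts for that class above. Under this block the ratios -0.38, -2.84 and -1.49 had an exact permutation p = 0.125, the smallest possible.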
